A study of Mus musculus with 2 samples.

Results

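The NR4A nuclear receptors and a set of classical immediate early genes were examined in the livers of Yap+/- and Yap+/+ mice. The 10 members were taken by gene symbol: the receptors Nr4a1, Nr4a2 and Nr4a3, the AP-1 subunits Fos, Fosb, Jun and Junb, the zinc finger factor Egr1, the nuclear regulator Ier2 and the MAP kinase phosphatase Dusp1. They are 10 of the 18193 genes that had a probe set with exactly 1 symbol, and 18 probe sets carried their symbols. Where a gene had several probe sets, the one with the highest mean represented it. Taking a mean of 6 or more on the log2 scale as measured, 8 of the 10 members were measured, among 9299 measured genes in all, and Nr4a2 and Fosb were not.

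One group was Yap+/- liver and the other Yap+/+ liver, both from untreated mice on a C57BL/6 background killed on postnatal day 30. Yap1 encodes YAP, a transcriptional co-activator that the Hippo kinases restrain, Yap+/- mice are heterozygous for its loss, and the labels name no Cre line or promoter that would limit the loss to a cell type. Livers of 5 mice per genotype were pooled and each pool was hybridised to 1 Affymetrix GeneChip array, so each value below is a single measurement of a pool, the 5 mice are 1 sample, and no difference between the genotypes was tested. How the disrupted allele was made, the sex of the mice, when in the day they were killed and whether they had fed: none of these is given in the labels.

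Immediate early genes are switched on within minutes of a stimulus, without new protein synthesis, by transcription factors already in the cell, mainly serum response factor with its ternary complex partners and the cAMP response element binding protein CREB. Their messenger RNAs are short-lived, so a level reflects recent signalling. In liver, NR4A receptors are induced through cAMP by glucagon and in fasting, and NR4A1 raises genes of glucose production in mice. AP-1 and EGR1 respond to growth factors, injury and feeding, and DUSP1 removes the activating phosphates from MAP kinases and so limits the same signals.

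The promoters of the 3 receptors and of the 2 other members that differed most are shown, because CREB binding sites are a known feature of NR4A and other immediate early promoters. RefSeq promoter windows of 300 bases, from 250 before to 50 after the gene's start on GRCm38.p6, were at hand for 8 members. The bases before the start are printed 5′ to 3′ on the gene's strand. Capitals mark the core of the cAMP response element (CRE), TGACG or its reverse complement CGTCA. The stretches are chr15:101266596-101266845 on the plus strand for Nr4a1, chr2:57124004-57124253 on the minus strand for Nr4a2, chr4:48045055-48045304 on the plus strand for Nr4a3, chr8:84978749-84978998 on the minus strand for Junb and chr17:26508473-26508722 on the minus strand for Dusp1.
Nr4a1: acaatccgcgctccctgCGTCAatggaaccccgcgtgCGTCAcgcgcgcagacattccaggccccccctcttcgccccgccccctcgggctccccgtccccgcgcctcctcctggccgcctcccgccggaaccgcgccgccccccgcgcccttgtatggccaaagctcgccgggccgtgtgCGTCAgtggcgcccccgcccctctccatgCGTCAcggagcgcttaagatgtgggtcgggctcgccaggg
Nr4a2: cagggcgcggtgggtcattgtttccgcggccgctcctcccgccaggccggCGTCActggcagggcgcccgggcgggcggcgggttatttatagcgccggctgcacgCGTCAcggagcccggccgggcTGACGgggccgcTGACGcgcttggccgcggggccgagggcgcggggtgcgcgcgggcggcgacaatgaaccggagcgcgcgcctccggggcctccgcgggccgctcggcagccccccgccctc
Nr4a3: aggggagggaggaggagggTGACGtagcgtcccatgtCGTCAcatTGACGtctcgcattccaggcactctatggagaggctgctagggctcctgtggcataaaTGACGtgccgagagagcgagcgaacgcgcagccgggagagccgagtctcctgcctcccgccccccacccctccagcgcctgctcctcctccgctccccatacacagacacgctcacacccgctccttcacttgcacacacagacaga
Junb: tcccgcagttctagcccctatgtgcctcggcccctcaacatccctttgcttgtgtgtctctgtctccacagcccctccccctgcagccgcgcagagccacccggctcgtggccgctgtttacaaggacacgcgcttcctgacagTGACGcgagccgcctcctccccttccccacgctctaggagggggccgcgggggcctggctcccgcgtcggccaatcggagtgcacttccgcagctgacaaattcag
Dusp1: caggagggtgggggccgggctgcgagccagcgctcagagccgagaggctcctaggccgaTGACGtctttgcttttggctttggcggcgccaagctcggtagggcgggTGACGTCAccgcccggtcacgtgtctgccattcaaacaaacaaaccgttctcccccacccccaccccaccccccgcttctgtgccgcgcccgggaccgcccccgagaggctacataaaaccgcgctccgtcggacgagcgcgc

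The CRE core was common to nearly all of these windows. It stood in 7 of the 8 member windows, all but that of Jun, and in 31.6% of 9780 windows of measured genes. Each of the 3 NR4A windows held 4 matches, a number reached by 0.532% of the windows of measured genes. The full CRE, TGACGTCA, was found in the Dusp1 window alone among the members, from 143 to 136 bases before the start, and in 3.03% of the windows of measured genes. Because it reads the same on both strands it holds the core on each, and it accounts for 2 of the 3 core matches of Dusp1. The core of Junb lay from 106 to 102 bases before the start, and the cores of Nr4a1 nearest the start lay from 69 to 65 and from 40 to 36 bases before it.

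Other motifs were rarer in these windows. The TATA box letters TATAAA, on either strand, were found before the start of Fos, from 33 to 28 bases away, and of Nr4a2, from 164 to 159 bases away, and after the start of Junb. These letters stood in 7.60% of the windows of measured genes. The EGR letters GCGGGGGCG were found in the Nr4a1 and Fosb windows, and in 5.47% of those of measured genes. Motifs with no match were the CArG box bound by serum response factor (CC, 6 letters A or T, GG), the AP-1 site TGANTCA, the NR4A monomer site AAAGGTCA and the EGR letters GCGTGGGCG, which stood in 1.27%, 4.99%, 1.12% and 1.12% of the windows of measured genes and had 0 matches in the 8 windows. Windows this short leave out most of each gene's control region. The member windows ran from 58.7% G and C for Fos to 81.7% for Nr4a2, against a median of 60.7% over measured genes. Windows that share the CRE core belonged to genes that differed in both directions between the pools, as the values below show.

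**Figure D1:**
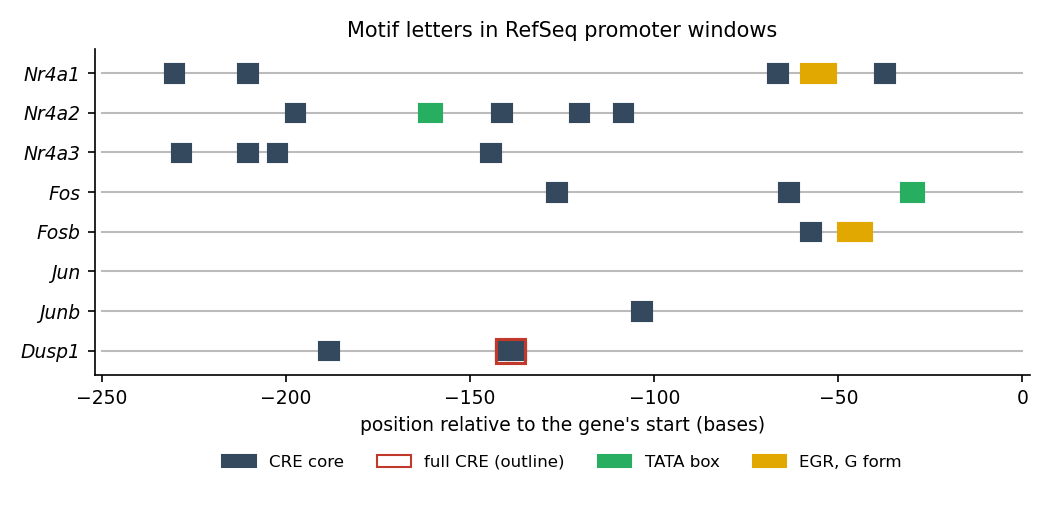
Motif letters found in the 250 bases before the start of 8 members, with position in bases relative to the gene's start on the horizontal axis and 1 row per gene. Dark blocks are CRE cores, the red outline is a full CRE, green blocks are TATA boxes and yellow blocks are EGR letters of the GCGGGGGCG form; the 3 NR4A genes have 4 CRE cores each and Jun has none.

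Nr4a1 had the largest difference of the 10 members. Its only probe set had a log2 value of 6.18 in Yap+/- liver and 7.90 in Yap+/+ liver, 3.29-fold lower in Yap+/-. Only 9 of the 9299 measured genes had a lower value of this difference. In the Yap+/- array 66.1% of all probe sets were dimmer than Nr4a1, and in the Yap+/+ array 82.3% were. With 64 added to the linear values, which damps dim probe sets, the log2 difference was -1.15 in place of -1.72.

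Nr4a3, whose product binds the same DNA sites as NR4A1, had no such difference. Its brightest probe set gave 6.13 in Yap+/- and 5.99 in Yap+/+, a log2 difference of 0.14, and its mean of 6.06 was only just over the minimum. Its 2 other probe sets, at 3.74 and 3.79 in Yap+/- and 4.04 and 3.58 in Yap+/+, differed by -0.29 and 0.21. Nr4a2, best known from dopamine neurons, was under the minimum, with 5.66 in Yap+/- and 5.77 in Yap+/+ on the brightest of its 6 probe sets. Its other 5 probe sets differed by between -0.57 and 0.29, the lowest at 3.27 in Yap+/- and 3.84 in Yap+/+. Among the 3 receptors the large difference was therefore seen for Nr4a1 only, while the probe sets of the other receptors were dim, and those of Nr4a2 and Nr4a3 pointed both ways.

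**Figure D2:**
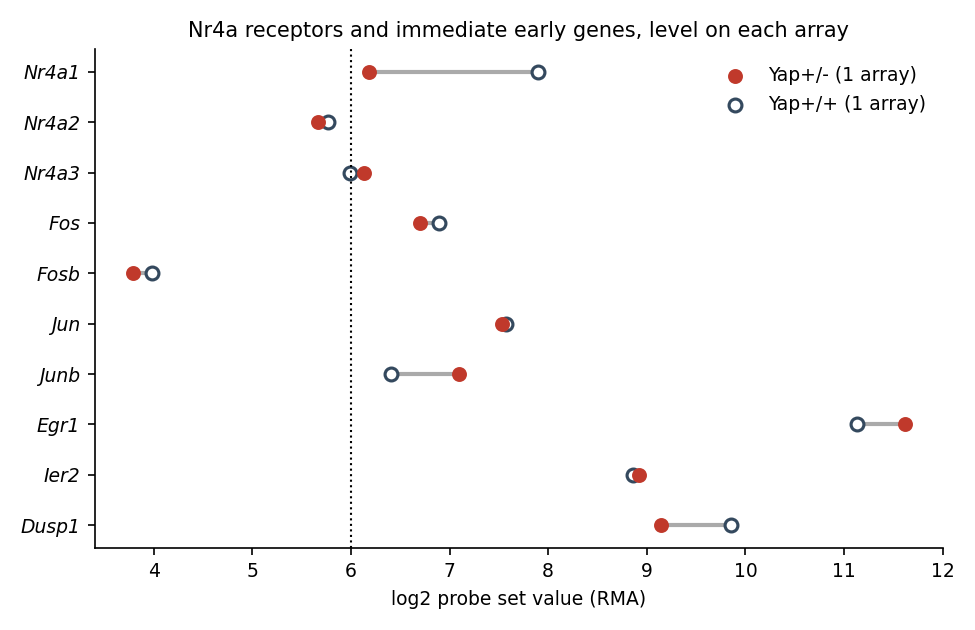
Level of each member on each array, as the log2 value of its brightest probe set, with filled red points for Yap+/- and open points for Yap+/+, 1 array each. The dotted line is the minimum mean of 6; Nr4a1 and Dusp1 lie lower in Yap+/-, Junb and Egr1 lie higher, and values of different genes are not comparable as amounts of RNA.

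The AP-1 subunits went different ways. AP-1 is a dimer of JUN and FOS family proteins, in which JUNB can oppose the action of JUN. Junb, with 1 probe set, had values of 7.10 in Yap+/- and 6.41 in Yap+/+, 1.62-fold higher in Yap+/-, and 0.344% of measured genes had a larger positive difference. Its log2 difference of 0.69 was 0.43 with 64 added to the linear values.

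Jun gave an uncertain reading. On the brighter of 2 probe sets it had 7.53 in Yap+/- and 7.57 in Yap+/+, a log2 difference of -0.04, whereas the dimmer one had 7.35 in Yap+/- and 7.04 in Yap+/+, a difference of 0.31. The gap of 0.35 between them compares with a robust SD of 0.17 between the 2 brightest measured probe sets of a gene, over 3406 genes, and 8.07% of those genes had a gap at least as large. Fos read 6.70 in Yap+/- and 6.89 in Yap+/+, 1.14-fold lower. Fosb was under the minimum, at 3.79 in Yap+/- and 3.99 in Yap+/+, dimmer than the median probe set, which read 4.92 and 4.93.

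Egr1 was higher in Yap+/-, by less than 1.5-fold. EGR1 is a zinc finger factor that drives growth and metabolic genes. It read 11.6 in Yap+/- and 11.1 in Yap+/+, 1.40-fold higher, and 1.16% of measured genes had a larger positive difference. Ier2, a nuclear protein of the early growth response, read 8.92 in Yap+/- and 8.86 in Yap+/+, 1.05-fold higher.

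Dusp1 was lower in Yap+/-. Its probe set gave 9.15 in Yap+/- and 9.85 in Yap+/+, 1.63-fold lower, and 32 of the 9299 measured genes had a lower difference. Dusp1 and Nr4a1 were the 2 members past 1.5-fold on the low side.

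**Figure D3:**
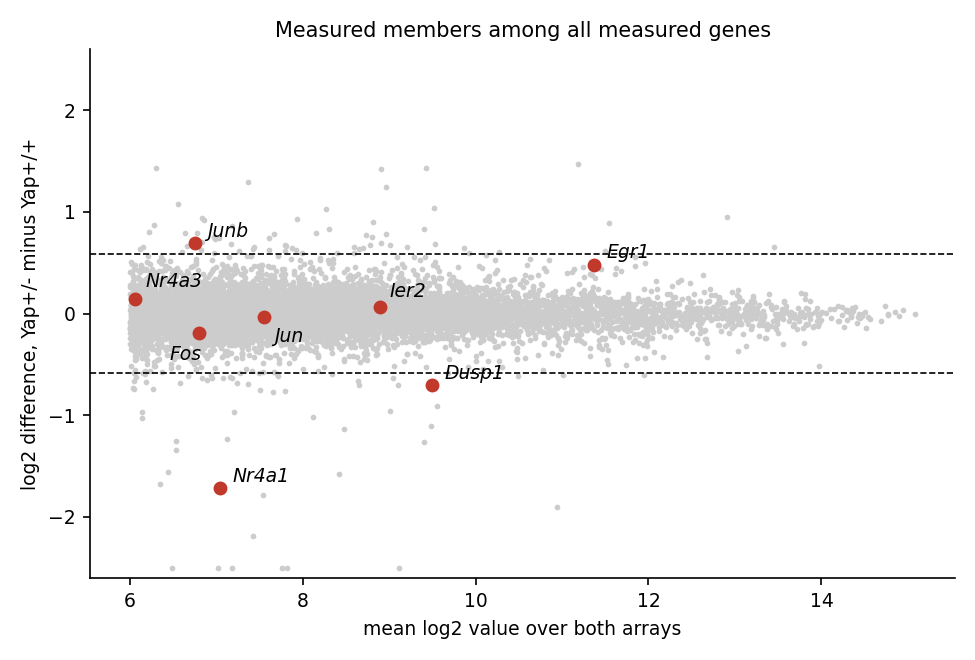
Log2 difference (Yap+/- minus Yap+/+) on the vertical axis against the mean log2 value over both arrays, for 9299 measured genes in grey and the 8 measured members in red. Dashed lines mark 1.5-fold, and 6 genes past 2.5 in size are drawn at that limit; Nr4a1 and Dusp1 lie under the lower line and Junb above the upper one.

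Counted by size, 2 of the 8 measured members were at least 1.5-fold lower in Yap+/-, as were 0.645% of all measured genes, and 1 was at least 1.5-fold higher, as were 0.699%. Either way this is 3 of 8, against 1.34% of all measured genes. At 2-fold, 1 member was lower, against 0.226% of measured genes, and 0 were higher, against 0.0968%, or 0.323% either way. The members were chosen with results of these arrays known, so these shares describe them and give no independent support. Signs were even, with 4 members higher and 4 lower. The median log2 difference of the measured members was 0.013, against 0.00 over all measured genes, while their median absolute difference was 0.34, against 0.099. Over all 10 members the median absolute difference was 0.19.

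**Figure D4:**
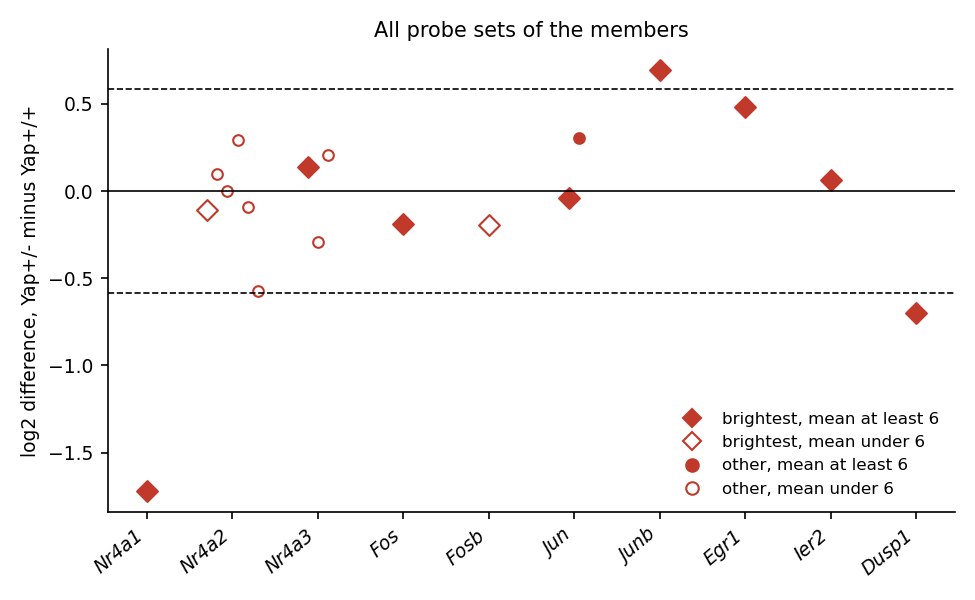
Log2 difference (Yap+/- minus Yap+/+) of all 18 probe sets of the members, grouped by gene. Diamonds are the brightest probe set of a gene and circles the others, filled where the mean log2 value is at least 6; dashed lines mark 1.5-fold, and 7 of the 10 genes rest on 1 probe set, among them Nr4a1, Junb and Dusp1.

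Genes related to the members also went both ways. The 10 related gene lists hold other genes of the response, its inputs, target genes and receptor partners. Counting each gene once, 81 were measured, with 46 higher in Yap+/- and 33 lower. Of the 81, 4 were at least 1.5-fold higher, against 0.699% of all measured genes, and 4 at least 1.5-fold lower, against 0.645%. The median log2 difference of the 81 was 0.025. Their median absolute difference was 0.19, against 0.099 over all measured genes. Like the members, the lists were chosen with results of these arrays known.

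Among the 27 measured other primary response genes, 2 were at least 1.5-fold higher and 2 at least 1.5-fold lower, with a median of 0.10. Over all measured genes these shares were 0.699% and 0.645%. The higher pair was Klf10, a TGF-beta inducible factor, at 8.92 in Yap+/- and 8.27 in Yap+/+ (1.57-fold), and Socs3, an inhibitor of cytokine signalling, at 8.10 in Yap+/- and 7.49 in Yap+/+ (1.53-fold). The lower pair was Ccn1, a matricellular gene known both as an immediate early gene and as a YAP target, at 7.03 in Yap+/- and 7.72 in Yap+/+ (1.61-fold), and Klf2, a flow-responsive endothelial factor, at 6.57 in Yap+/- and 7.21 in Yap+/+ (1.57-fold). These 4 genes therefore split evenly in direction.

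Of the 8 measured AP-1 relatives, 1 was past 1.5-fold, against 1.34% of all measured genes either way, with a list median of 0.0041. This was Maff, a small MAF protein, at 7.32 in Yap+/- and 6.40 in Yap+/+, 1.90-fold higher. Batf3, an AP-1 factor of dendritic cells, was 1.09-fold higher, while Fosl2 was 1.20-fold and Mafg 1.06-fold lower, the last with a second probe set that differed by 0.053. The EGR relatives Egr2, Egr3 and Egr4 were under the minimum. Both NAB corepressors, which bind EGR proteins and restrain them, were measured. Nab2, itself a target of EGR1, read 7.76 in Yap+/- and 7.28 in Yap+/+, 1.39-fold higher, and Nab1 read 10.5 on both arrays. Nab2 and Egr1 were both higher in Yap+/-, on 1 array per genotype, and a link between them was not tested.

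None of the 5 other measured MAP kinase phosphatases was past 1.5-fold, and their median was -0.047. Dusp6, which acts on ERK, read 9.46 in Yap+/- and 9.92 in Yap+/+, 1.37-fold lower, and Dusp7 was 1.17-fold lower. Dusp16 was 1.17-fold and Dusp5 1.04-fold higher.

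The genes upstream of the response differed little. All 10 measured serum response factor and MAP kinase inputs lay within 1.5-fold, with a median of 0.012. The largest positive differences were those of the actin-sensing co-activators Mrtfa (1.29-fold higher) and Mrtfb (1.14-fold higher). The kinase Mapk8 was 1.09-fold and the ternary complex factor Elk3 1.05-fold lower. All 11 measured CREB and cAMP inputs also lay within 1.5-fold, with a median of 0.011. The acetyltransferase Crebbp was 1.19-fold and Creb1 itself 1.14-fold higher, while Crem was 1.11-fold and the co-activator Crtc3 1.06-fold lower. For Mapk8, Elk3, Crem and Crtc3 the next brightest probe set differed the other way, by 0.12, 0.11, 0.0078 and 0.27, so their direction is not settled.

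Hepatic targets of CREB and its co-activator CRTC2 went both ways. Of 7 measured, 0 were past 1.5-fold on their brightest probe set, 4 were higher and 3 lower. Their median was 0.15. Second measured probe sets gave other values for 2 of them, with -0.86 for the phosphodiesterase Pde4b, past 1.5-fold, against -0.19 on its brightest, and -0.34 for the gluconeogenic enzyme Pck1, against 0.17 on its brightest. Per1, a clock gene with CREs in its promoter, read 8.13 in Yap+/- and 7.59 in Yap+/+, 1.45-fold higher. Ppargc1a, the co-activator PGC-1alpha, read 8.56 in Yap+/- and 8.06 in Yap+/+, 1.42-fold higher. Irs2, the insulin receptor substrate, read 7.13 in Yap+/- and 7.70 in Yap+/+, 1.48-fold lower, and the amino acid enzyme Tat was 1.16-fold lower. Sik1, also on this list, was under the minimum and so not among the 7. It was 1.66-fold lower in Yap+/-, at a level where a fold is not exact. G6pc, 3.73-fold lower in Yap+/-, was not on this list, so the count of 0 does not cover it. It is given below with the genes that NR4A1 raises.

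Of 4 hepatic genes that NR4A1 raises in mice, 2 were measured. G6pc, which makes free glucose in the last step of glucose production, read 9.997 in Yap+/- and 11.9 in Yap+/+, 3.73-fold lower, while Fbp1, fructose bisphosphatase, read 14.3 on both arrays. Fbp2 and Eno3 were under the minimum, at 5.30 and 5.77 in Yap+/- and 5.30 and 6.05 in Yap+/+. G6pc was lower in the same pool as Nr4a1, and Fbp1 was not. A link of either gene to Nr4a1 was not tested. The retinoid X receptors, with which NR4A1 and NR4A2 can pair, were all measured and within 1.5-fold. Rxrb was 1.23-fold and Rxra 1.07-fold higher and Rxrg 1.18-fold lower. A second Rxra probe set differed by -0.096.

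Dusp1 is also a direct target of the glucocorticoid receptor, and other targets of that receptor went both ways. Of the 8 measured genes of that list, 1 was at least 1.5-fold higher and 1 at least 1.5-fold lower, with a median of 0.11. Among all measured genes the shares were 0.699% and 0.645%. Zbtb16 read 8.79 in Yap+/- and 7.76 in Yap+/+, 2.04-fold higher, and the kinase Sgk1 read 8.73 in Yap+/- and 9.36 in Yap+/+, 1.55-fold lower. Per1 and Tat, given above, also belong to that list.

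**Figure D5:**
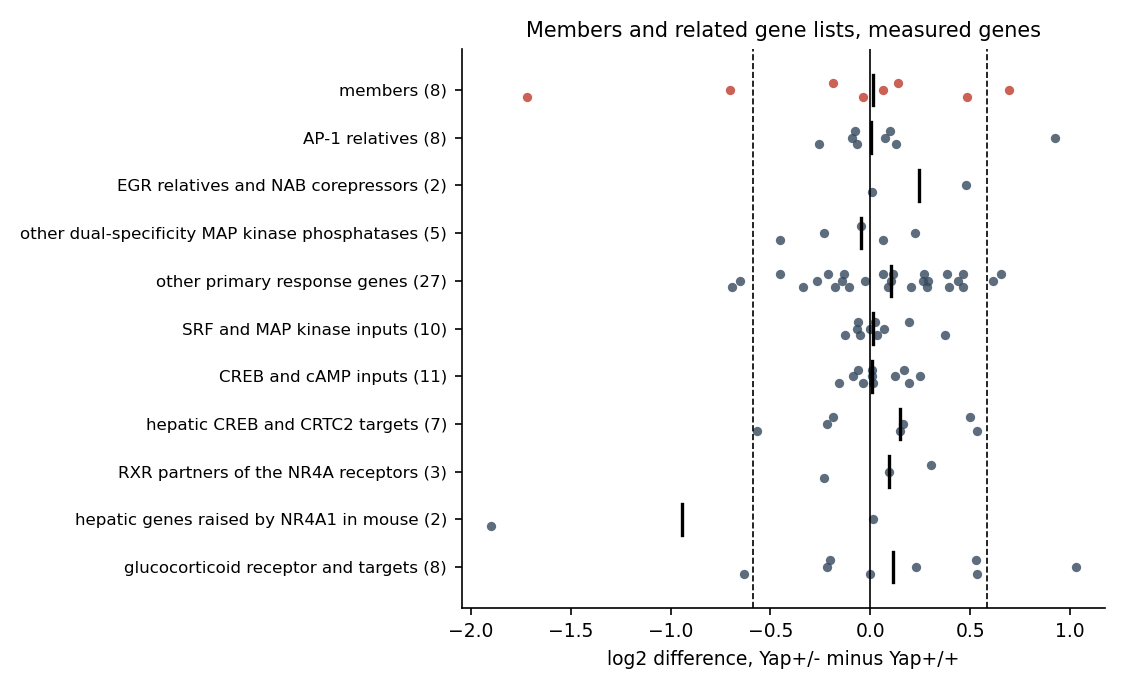
Log2 difference (Yap+/- minus Yap+/+) of measured genes, with the members in red and 10 related lists in grey-blue, 1 point per gene, black bars for medians and the number of measured genes in brackets. Dashed lines mark 1.5-fold; the points of most lists lie on both sides of 0.

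Genes with a difference like that of a member were found by the absolute gap in log2 difference, a likeness that rests on only 2 arrays. Nearest to Nr4a1 were the mucin Muc1, at -1.67, the surface glycoprotein Cd24a, at -1.79, and the adaptor Pik3ap1, at -1.58. Nearest to Junb, at 0.69, were the stress kinase Map3k5 (0.69), the centrosomal gene Cep85 (0.68) and the lipase inhibitor G0s2 (0.68). Nearest to Dusp1, at -0.70, were the fatty acid transporter Cd36 (-0.70), the SUMO-activating enzyme subunit Sae1 (-0.70) and Ccn1 (-0.69).

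Over all 45101 probe sets the 2 arrays had Pearson's r = 0.996, across probe sets that are not independent replicates. Yap1 had 9.24 in Yap+/- and 9.40 in Yap+/+ on the brighter of 2 probe sets, a log2 difference of -0.15. The dimmer one, at 5.77 in Yap+/- and 6.01 in Yap+/+, differed by -0.24. The robust SD of the difference over all measured genes was 0.15. Differences this small hardly check the labels, and the position of the disruption is not stated. The labelled tissue was borne out by hepatocyte markers, 7 of 8 measured, from 12.1 to 15.1 in Yap+/- and from 12.1 to 15.1 in Yap+/+, with a summed level of 17.2 on the log2 scale in both. In Yap+/- control transcripts, the excess of 3-prime over 5-prime signal differed from that in Yap+/+ by -0.035 for the transferrin receptor and by 0.20 to 0.22 for the other 3, pyruvate carboxylase, Gapdh and beta-actin.

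Pooled liver RNA does not show which cell types express the members, and markers of several cell types also differed between the pools. In such bulk RNA, fewer cells of a type and less RNA per cell cannot be told apart. All 8 Kupffer cell and macrophage markers were higher in Yap+/-, while 4542 of the 9299 measured genes were higher and 4610 lower. Of the 8, 1 was at least 1.5-fold higher, against 0.699% of all measured genes. Their levels ran from 6.29 to 11.7 in Yap+/- and from 6.15 to 11.2 in Yap+/+, with summed levels of 13.2 and 12.9. Of 6 measured smooth muscle and stellate cell markers, 5 were lower and 2 of these by at least 1.5-fold, against 0.645% of all measured genes. Among the 2 was Acta2, at 7.92 in Yap+/- and 9.05 in Yap+/+. Lrat, also counted as lower, differed by only -0.072. Pdgfrb was higher, by 0.31 on its brightest probe set and 0.00 on another. The list joins both cell types, so it stands for neither alone. The 7 markers found lay between 3.99 and 8.56 in Yap+/- and between 4.90 and 9.05 in Yap+/+, with summed levels of 10.3 and 10.7.

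The other lists were smaller or dimmer. Of 6 measured endothelial markers 5 were higher, none by 1.5-fold, with summed levels of 11.9 in Yap+/- and 11.7 in Yap+/+. The 5 bile duct markers found were all under the minimum, with summed levels of 7.28 in Yap+/- and 7.85 in Yap+/+, and the keratin gene Krt19 had 4.83 in Yap+/- and 6.73 in Yap+/+. Without Krt19, left out after its value was seen, the summed levels of the 4 others were 6.99 in Yap+/- and 6.97 in Yap+/+. The 4 others were dim, from 2.84 to 5.81 in Yap+/-, so their sum cannot show whether duct signal differed. Of the 5 neutrophil markers found, 2 were measured, and summed levels of the 5 were 8.48 in Yap+/- and 7.86 in Yap+/+. Of the 2 measured, S100a9 was at least 1.5-fold higher, at 7.02 in Yap+/- and 5.58 in Yap+/+. Among all measured genes 0.699% were. Csf3r, the other, read 6.82 in Yap+/- and 6.86 in Yap+/+. S100a8, the partner of S100a9 in calprotectin, had values of 5.95 in Yap+/- and 4.36 in Yap+/+, a mean below 6. It was 3.01-fold higher at a level where a fold is not exact. Mpo and Elane, also under the minimum, differed by -0.10 and 0.26, so the list did not move as 1. Of 7 lymphocyte markers 1 was measured, Ccl5, at 7.14 in Yap+/- and 6.52 in Yap+/+, and summed levels were 8.33 in Yap+/- and 8.06 in Yap+/+. The others, all under the minimum, differed both ways, by between -0.16 for Cd3g and 0.22 for Nkg7. The part of these cell types, or of the 3-prime signal, in the differences of Nr4a1, Junb and Dusp1 was not tested.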

How the data were processed

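Liver RNA of 1 pool of 5 mice per genotype was measured on 2 Affymetrix arrays. The authors deposited log2 values per probe set, obtained with RMA and Partek 6.5 per the submitters' processing notes, which state no settings. The sorted columns differed by at most 0.047. Gene symbols came from the platform's annotation, array controls were left out, and the brightest probe set stood for its gene. A mean log2 value of at least 6 counted as measured. Differences are Yap+/- minus Yap+/+. With 1 array per genotype there is no test, no error and no p-value, and the number of arrays limits the precision.

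The members and the gene lists were chosen with earlier results of these data known. Named are all members, up to 2 measured genes per direction of each of 10 related lists, the 3 genes nearest in difference to Nr4a1, Junb and Dusp1, Yap1, and markers of 7 cell types. Acta2, Krt19, S100a8, S100a9, Pde4b, Pck1, Ccl5, Egr2, Egr3, Egr4, Fbp2 and Eno3 were added after their values were seen. So were Pdgfrb, Lrat, Csf3r, Mpo, Elane, Cd3g, Nkg7 and Sik1. Promoter sequences are from RefSeq (GRCm38.p6), matched by symbol for 8 members; motifs were searched on both strands. The counting was tested on simulated data with known folds, which checks the counting step and not the value of any member. Alternatives covered the filter, the choice of probe set, the scaling, an added offset and the threshold. Scripts ran under Python 3.11.15 with pandas 2.3.3, numpy 2.4.6, matplotlib 3.10.9 and statsmodels 0.14.6.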

Additional observations from a re-analysis of the deposited data

How the results depend on the processing

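The count of members at least 1.5-fold lower in Yap+/- was 2 under the alternatives of filter, probe set, scaling and offset and with a threshold of 4 local robust SDs (over the 500 genes nearest in level), and 1 at 2-fold, where Dusp1 no longer passed. The count of members at least 1.5-fold higher was 0 with a minimum mean of 7, which leaves out Junb, 0 with 64 added on the linear scale and 0 at 2-fold, and 1 under the other alternatives; with 4 local robust SDs that 1 was Egr1 in place of Junb. The median log2 difference of the measured members was -0.073 without the filter, over all 10 members, and between -0.038 and 0.064 under the other alternatives, so its sign is not settled. For single members, 44 values came from alternatives that could change them, 40 of these from scaling or the offset. Of the 44, 40 moved by less than the robust SD between probe sets of a gene and 4 by more, and 0 of the members past 1.5-fold changed sign. The sorted columns differed by at most 0.047, against that SD of 0.17, so the scaling alternatives could hardly move a value. Most of the 44 were therefore little of a check. All 4 that moved came from the offset or the choice of probe set. Nr4a1, Junb and Dusp1 have 1 probe set each, so the choice of probe set was no check on them. The 4 were Nr4a1 (-1.15) and Junb (0.43) with the offset, Jun (0.13) as the mean of its probe sets and Nr4a2 (0.098) on probe sets without a suffix. No paired analysis was possible because each genotype has 1 array. Detection calls were not used here, so how far dim values such as those of Nr4a2, Nr4a3 and Fosb stand above background was not measured.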

Other observations

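Values were identical on both arrays, to the deposited decimals, for 147 of the 9299 measured genes, and likewise for 1 of the 6 Nr4a2 probe sets, at 4.62 on both.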
